A study of Mus musculus with 12 samples.

Results

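The costimulatory and death receptors of the TNF receptor superfamily were followed through the conversion of naive CD4+ T cells into induced Treg cells. The set held 10 genes listed by name, with earlier results of these data known, and all 10 are given whatever their values. These were the costimulatory receptors Tnfrsf4, Tnfrsf9, Tnfrsf18, Tnfrsf25 and Cd27, the TNF receptors Tnfrsf1a and Tnfrsf1b, the death receptor Fas, and the ligands Tnfsf8 and Tnfsf11. They were represented by 23 of the 45281 probes of the Illumina Mouse WG-6 v2 array, all 23 passed the filter on dim probes, and each gene was tested through its brightest probe among 15663 genes in all. All cells came from Foxp3GFP mice, which carry a green fluorescent reporter of Foxp3, the defining transcription factor of Treg cells. The 12 arrays comprised 4 of TregHAR cells (low TGF-β with harmine, a DYRK kinase inhibitor found in plants), 4 of Treghi cells (high TGF-β alone) and 4 of the naive cells from which they were made. Both kinds of Treg cell were cultured on anti-CD3 and anti-CD28 with IL-2 and sorted by FACS on day 4, whereas the naive cells were taken without culture. For each treatment, 2 arrays started from precursors sorted by FACS and 2 from precursors isolated on magnetic columns (MACS).

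Receptors of this family are activated by trimeric ligands, most of them displayed on antigen-presenting cells, and those without a death domain bind TRAF adaptors that lead to NF-κB and to T cell survival. Receptors with a death domain, such as Fas, TNFR1 and DR3, can instead assemble caspase-activating complexes. In Treg cells OX40 (Tnfrsf4), GITR (Tnfrsf18), CD137 (Tnfrsf9) and TNFR2 (Tnfrsf1b) are widely used as markers and as targets of agonist antibodies, while CD27 is carried by naive T cells and gives a survival signal when it meets CD70.

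Of the 10 genes, 6 lie on mouse chromosome 4, and Tnfrsf4 and Tnfrsf18 are near neighbours there with 1 annotated gene, Gm25982, between them. The sequence before the start sites of the 3 receptors that were higher in both kinds of Treg cell is shown because these genes changed together. RefSeq sequence (GRCm38.p6) of 250 bases before the start was found for all 10 genes at 12 starts, and each window was searched on both strands for an NF-κB consensus, the AP-1 motif TGANTCA, the STAT motif TTCNNNGAA and the NFAT core TGGAAA. Matches are in capitals, each sequence runs 5′ to 3′ on the plus strand, and the window of Tnfrsf4 is shown up to the first base of the annotated gene. The windows are chr4:156013445-156013594 for Tnfrsf4, chr4:156026072-156026321 for Tnfrsf18, and chr4:150919905-150920154 and chr4:150927749-150927998 for the first and second starts of Tnfrsf9.
Tnfrsf4: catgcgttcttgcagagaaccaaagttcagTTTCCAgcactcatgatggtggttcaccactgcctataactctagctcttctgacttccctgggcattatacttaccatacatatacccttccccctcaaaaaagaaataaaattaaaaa
Tnfrsf18: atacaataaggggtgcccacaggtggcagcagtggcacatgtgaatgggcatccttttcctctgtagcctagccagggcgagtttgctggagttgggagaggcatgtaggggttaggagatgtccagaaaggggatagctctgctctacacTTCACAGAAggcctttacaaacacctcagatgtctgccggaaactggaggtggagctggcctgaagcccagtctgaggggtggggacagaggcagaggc
Tnfrsf9, first start: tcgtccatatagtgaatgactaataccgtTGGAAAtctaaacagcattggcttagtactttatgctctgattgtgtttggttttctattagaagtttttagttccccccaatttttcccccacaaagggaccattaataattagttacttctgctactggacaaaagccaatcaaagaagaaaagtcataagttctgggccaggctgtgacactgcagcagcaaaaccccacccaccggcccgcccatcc
Tnfrsf9, second start: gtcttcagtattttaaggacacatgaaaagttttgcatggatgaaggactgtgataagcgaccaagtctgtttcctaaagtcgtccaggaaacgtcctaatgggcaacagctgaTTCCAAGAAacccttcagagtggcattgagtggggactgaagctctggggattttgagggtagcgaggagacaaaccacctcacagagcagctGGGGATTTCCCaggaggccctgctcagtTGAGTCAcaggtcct
The second start of Tnfrsf9 was the only one of the 12 with an NF-κB match, which lay 43 to 33 bases before the start, and it also held an AP-1 match 15 to 9 bases and a STAT match 136 to 128 bases before it. Tnfrsf18 had a STAT match 99 to 91 bases before its start, and Tnfrsf4 and the first start of Tnfrsf9 had an NFAT core 220 to 215 and 221 to 216 bases before theirs. Such matches were not particular to these receptors. Tnfrsf25, Tnfrsf1b, Tnfrsf1a and Fas, which were not higher in Treg cells, had a STAT match too, and Fas also an AP-1 match. Cd27, Tnfsf8 and Tnfsf11 had no match, although Tnfsf11 was higher in both kinds of Treg cell. The searched Tnfrsf4 window ran on to chr4:156013694, past the printed sequence. Its positions are therefore counted from a start inside the annotated gene, whose first base is 156013595. Among 32851 promoter windows of this length, 3.9% held the NF-κB consensus, 6.75% the AP-1 motif, 7.02% the STAT motif and 18.6% the NFAT core. A match describes the letters only.

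The libraries were first checked as a whole. Between 29.9% and 30.2% of probes exceeded background on an array, where background means a ceiling at a log2 level of 6.22 to 6.23, and the 6 pairs of replicates correlated at r = 0.980 to 0.992 across probes. Whether the replicates of a group were separate animals or cultures is not stated in the labels. All p-values therefore refer to the spread between arrays, which may in part be technical. The naive replicates were not repeats of 1 RNA, since Xist, expressed in females, was 8.19 and 8.47 on both replicates 1 but 5.76 and 5.84 on both replicates 2, and the Y-linked Eif2s3y was 5.96 and 6.07 on replicates 1 but 8.07 and 8.08 on replicates 2. Xist lay between 9.28 and 10.49 in TregHAR cells and between 8.98 and 10.21 in Treghi cells, and was higher than in naive cells (adjusted p = 0.00945 and 0.0101), so this marker of donor sex moved with these comparisons. Xist on naive replicates 1 also lay below its level on every Treg array. Eif2s3y was above background on 2 of 4 arrays of each treatment and did not differ from naive cells (limma adjusted p = 0.389 and 0.382). With a term for Eif2s3y signal, the same genes of the 10 passed against naive cells as without it. That term is balanced over the treatments and cannot adjust for the difference in Xist. Cd3d, Cd3e and Cd3g, which encode parts of the T cell receptor complex, were bright on all 12 arrays, and the Cd4 probe was dim but above background, at 6.55 to 7.02 in TregHAR cells, 6.93 to 7.31 in Treghi cells and 7.30 to 8.18 in naive cells. The Treg genes Il2ra, Ctla4, Gpr83 and Nrp1 were higher in TregHAR and Treghi cells than in naive cells, but Ikzf2 and Foxp3, the other 2 genes measured of that list, were not. Ikzf2 differed from naive cells by 0.04 in TregHAR and -0.12 in Treghi cells. Foxp3 had log2 levels of 6.71 to 7.40 in TregHAR cells, 6.62 to 7.10 in Treghi cells and 7.09 to 7.42 in naive cells. By flow cytometry the paper found FOXP3 protein in Treg cells made under both conditions, a measure unlike this RNA probe. The naive arrays, above all those of MACS-purified cells, carried transcripts of other cells. The summed level of 8 B cell markers was 10.2 to 10.6 on TregHAR arrays and 10.3 to 10.7 on Treghi arrays, against 11.5 to 11.7 on naive FACS arrays and 13.9 to 14.2 on naive MACS arrays, and Pax5 was above background on 0 arrays. The summed level of 14 myeloid markers was 10.03 to 10.37 on TregHAR arrays and 10.1 to 10.3 on Treghi arrays, against 11.9 to 12.8 on naive FACS arrays and 14.1 to 15.1 on naive MACS arrays, and Itgam was above background on 0 arrays. The summed level of 3 erythroid and platelet markers was 7.47 to 7.62 on TregHAR arrays, 7.43 to 7.55 on Treghi arrays and 9.74 to 12.98 on naive arrays. Of 6 markers of CD8 T and NK cells, Cd8b1 was bright and higher in both kinds of Treg cell than in naive cells, at 10.37 to 10.59 in TregHAR cells, 10.11 to 10.39 in Treghi cells and 9.38 to 9.62 in naive cells, while Gzmb was above background on 0 arrays. The other markers of this list went the other way. Klrd1 differed from naive cells by -2.48 in TregHAR and -1.69 in Treghi cells, and the dim Klrb1c was also called lower in both. Nkg7 (-1.63) and Prf1 (-1.39) were called lower in Treghi cells and did not pass in TregHAR cells (-0.56 and -0.91). The summed level of the 6 was 11.5 to 11.8 on TregHAR arrays, 11.1 to 11.3 on Treghi arrays and 11.4 to 12.2 on naive arrays. The part of these other cells in the comparisons with naive cells was not tested, and calls that did not hold within FACS or within MACS alone are named with each gene. Among the TregHAR arrays, FACS replicate 1 and MACS replicate 2 stood apart from the other 2, with scores of 15.2 and 17.04 on the second principal component against -3.65 and -4.22.

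The first comparison asked how the receptors and ligands of made Treg cells differed from those of their naive precursors. OX40, GITR, CD137 and the ligand RANKL rose in both kinds of Treg cell, CD27 fell in TregHAR cells, and DR3 was slightly lower in both. The ligand Tnfsf8 was slightly lower in Treghi cells, and Fas and both TNF receptors passed in neither. In TregHAR cells against naive cells, 4 of the 10 genes were higher and 2 were lower at an adjusted p under 0.05, while 13.8% of all genes were higher and 13.7% lower. In Treghi cells against naive cells, 4 were higher and 2 were lower, while 12.8% of all genes were higher and 13.2% lower. In either direction, 27.5% of all genes passed in TregHAR cells and 26% in Treghi cells. Higher genes made up 50.1% of all genes called in TregHAR cells and 49.4% in Treghi cells, and 60.2% and 59.2% with arrays scaled to a common median. The ranges of the 4 arrays did not overlap for 6 genes in TregHAR cells and 7 in Treghi cells, and did not overlap for 26.7% of all genes in either comparison. The median log2 difference of the 10 genes was 0.07 in TregHAR cells and 0.17 in Treghi cells, and that of all genes was -0.01 and 0.00. Both comparisons share the naive arrays. Because RNA was taken from bulk cells, fewer cells with a transcript and less transcript per cell cannot be told apart, and because naive cells were not cultured, activation, culture and Treg differentiation cannot be told apart either.

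**Figure D1:**
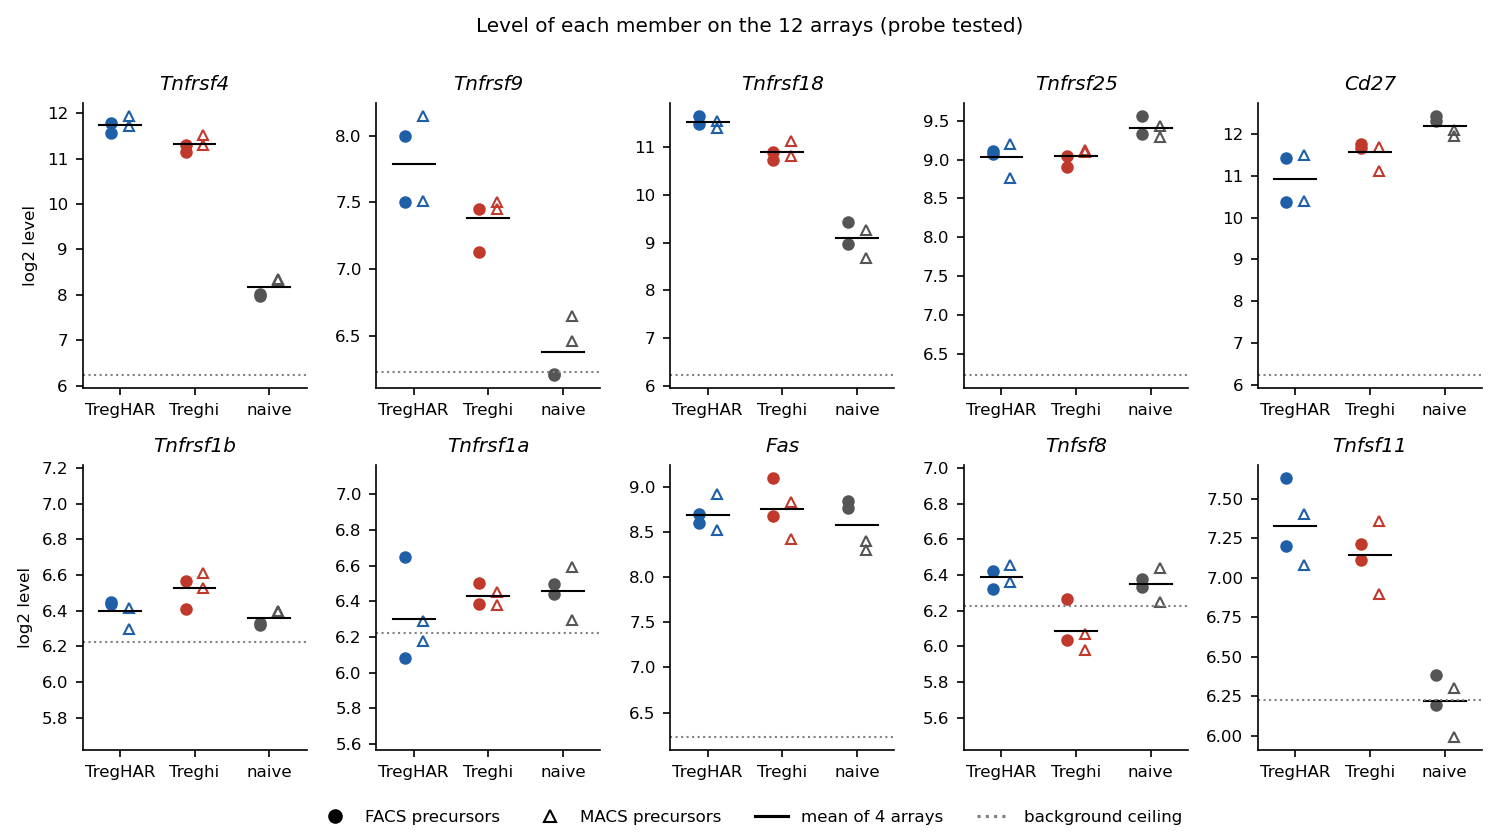
Normalized log2 level of each gene (vertical axis, 1 panel a gene) in TregHAR, Treghi and naive cells on the 12 arrays. Filled circles stand for FACS-purified and open triangles for MACS-purified precursors, bars for the mean of 4 arrays and the dotted line for the background ceiling; every TregHAR array lay above every Treghi array for Tnfrsf4, Tnfrsf9, Tnfrsf18 and Tnfsf8.

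Tnfrsf4 encodes OX40, which sustains the expansion and survival of activated T cells, and it showed the largest difference of the 10 genes. Its log2 levels (probe ILMN_2446559) were 11.78 and 11.56 on the FACS arrays and 11.71 and 11.95 on the MACS arrays of TregHAR cells. They were 11.16, 11.30, 11.30 and 11.53 in Treghi cells in the same order. They were 7.97, 8.02, 8.35 and 8.32 in naive cells. The 3 treatments thus formed 3 bands with no overlap, with a wide step between naive and Treg cells and a narrow one between the 2 kinds of Treg cell. Tnfrsf4 was 11.99-fold higher in TregHAR cells than in naive cells (log2 difference 3.58 ± 0.08, SE, n = 4 arrays each, limma adjusted p = 6.06e-09) and 8.91-fold higher in Treghi cells than in naive cells (3.16 ± 0.08, adjusted p = 1.22e-08). Within FACS the differences were 3.68 and 3.23, and within MACS 3.49 and 3.08.

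Tnfrsf18 encodes GITR, a receptor that is abundant on Treg cells and that costimulates activated T cells. Its levels (probe ILMN_2419490) were 11.65 and 11.48 on FACS and 11.54 and 11.40 on MACS arrays of TregHAR cells. They were 10.73, 10.90, 11.13 and 10.82 in Treghi cells and 9.43, 8.98, 9.26 and 8.68 in naive cells. As with Tnfrsf4, the 12 arrays fell into 3 bands in the order TregHAR, Treghi, naive. It was 5.39-fold higher in TregHAR cells (2.43 ± 0.15, adjusted p = 1.96e-06) and 3.49-fold higher in Treghi cells (1.80 ± 0.15, adjusted p = 1.40e-05) than in naive cells. A second probe (ILMN_2419494) separated the 3 treatments in the same order, with differences of 2.26 and 1.67. Naive cells already carried Tnfrsf18 well above the background ceiling.

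Tnfrsf9 encodes CD137, which is induced by T cell activation and is little expressed at rest. Its log2 levels (probe ILMN_2445789) were 8.002, 7.51, 7.51 and 8.15 in TregHAR cells and 7.13, 7.45, 7.45 and 7.50 in Treghi cells. They were 6.21, 6.20, 6.46 and 6.65 in naive cells, where only the 2 MACS arrays exceeded background. Every Treg array lay above every naive array. Tnfrsf9 was 2.66-fold higher in TregHAR cells (1.41 ± 0.15, adjusted p = 8.24e-05) and 2.004-fold higher in Treghi cells (log2 difference 1.003 ± 0.15, adjusted p = 0.000843) than in naive cells. The other probe above background (ILMN_3103746) gave smaller differences of 0.58 (limma over all probes, adjusted p = 0.00984) and 0.40 (adjusted p = 0.0568), and the third probe was above background on 0 arrays.

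Cd27, whose product supports the survival and memory of naive and antigen-activated T cells, went the other way. Its levels (probe ILMN_3128992) were 10.38 and 11.43 on FACS and 11.51 and 10.41 on MACS arrays of TregHAR cells. They were 11.76, 11.67, 11.70 and 11.13 in Treghi cells and 12.44, 12.33, 12.11 and 11.95 in naive cells. Naive cells were highest on every array, and the TregHAR arrays split into a high and a low pair. Cd27 was 2.42-fold lower in TregHAR cells than in naive cells (-1.28 ± 0.27, adjusted p = 0.00558). In Treghi cells the difference from naive cells was -0.64 ± 0.27 and did not pass the threshold (adjusted p = 0.124), although the ranges did not overlap. The 2 other probes of Cd27 gave -1.09 (adjusted p = 0.0428) and -0.35 (adjusted p = 0.0649) in TregHAR cells, and -0.60 and -0.15 in Treghi cells, in both cases against naive cells.

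The low pair consisted of the 2 TregHAR arrays that stood apart, FACS replicate 1 and MACS replicate 2. Cd27 averaged 10.40 on these and 11.47 on the other 2 TregHAR arrays, a difference of -1.07. Of the other genes, Tnfrsf9 was 0.57, Fas 0.25 and Tnfrsf4 0.23 higher on the pair, and Tnfsf11 was 0.38 and Tnfrsf1a 0.34 below the level of the other 2 arrays. The pairs separated without overlap for 7 of the 10 genes and for 43.4% of all genes. Leaving out these 2 arrays was chosen after seeing the data and leaves 1 array in each TregHAR group. Without them Cd27 differed from naive cells by -0.74 in TregHAR cells, and its difference between TregHAR and Treghi cells shrank to -0.10. Its difference of Treghi from naive cells stayed at -0.64, since no array of either was left out. Within MACS alone the TregHAR difference from naive cells was -1.07 (adjusted p = 0.0852), and within FACS it was -1.48 (adjusted p = 0.0235).

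**Figure D2:**
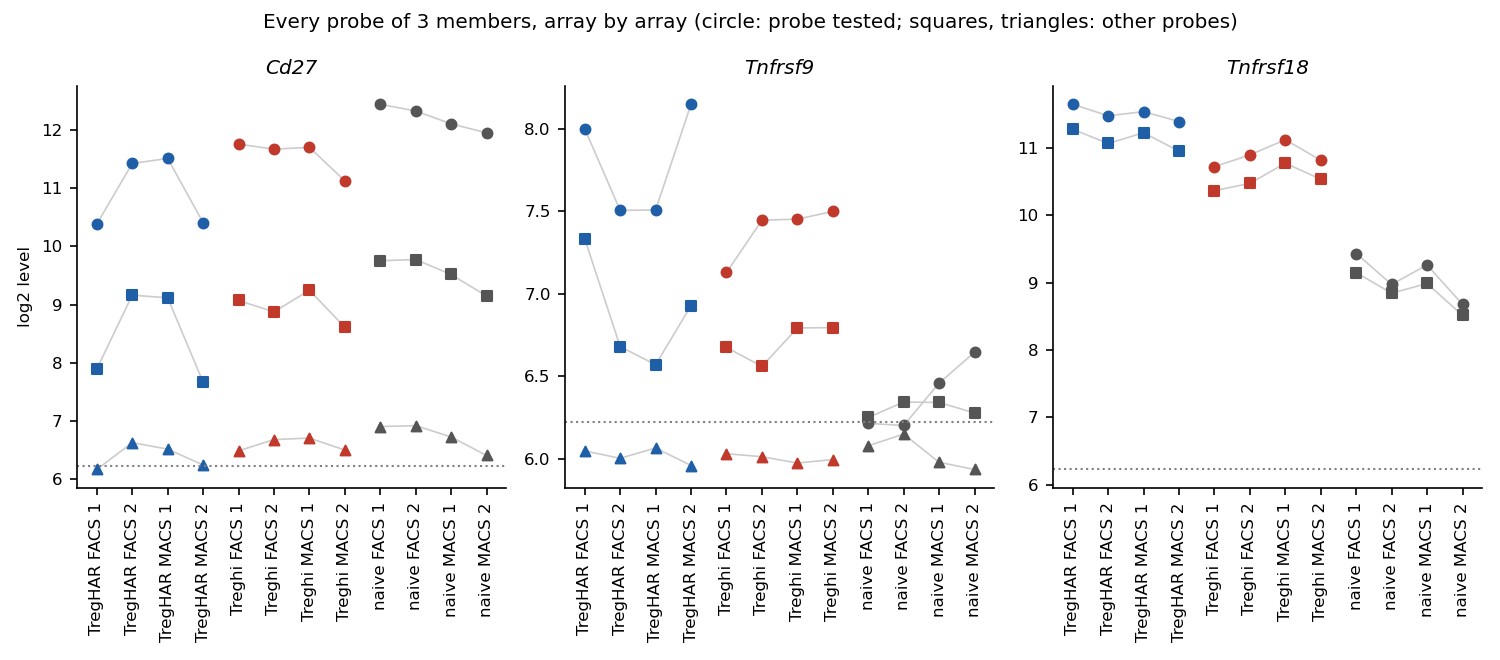
Normalized log2 level (vertical axis) of every probe of Cd27, Tnfrsf9 and Tnfrsf18 on each of the 12 arrays (horizontal axis; blue TregHAR, red Treghi, grey naive). Circles mark the probe tested, squares and triangles the other probes, and the dotted line the background ceiling; all 3 Cd27 probes were lowest on TregHAR FACS 1 and TregHAR MACS 2.

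Tnfrsf25 encodes DR3, a death-domain receptor for TL1A that costimulates T cells and expands Treg cells in mice. Its levels were 9.11, 9.07, 9.20 and 8.77 in TregHAR cells, 8.90, 9.05, 9.13 and 9.10 in Treghi cells, and 9.56, 9.33, 9.43 and 9.29 in naive cells. The naive arrays lay above all others by a small margin, with differences of -0.37 ± 0.10 in TregHAR cells (adjusted p = 0.0201) and -0.36 ± 0.10 in Treghi cells (adjusted p = 0.0230). These calls were not stable. They were lost when arrays were scaled to a common median (-0.24 and -0.25), with the mean of both probes (-0.20 and -0.16), within MACS (-0.38 and -0.25) and, for TregHAR cells, within FACS (-0.36, adjusted p = 0.122). They were also lost on leaving out 1 array, which was TregHAR FACS 2, TregHAR MACS 2, naive FACS 1 or naive MACS 1 for TregHAR cells (adjusted p up to 0.0818), and Treghi FACS 1, Treghi MACS 1, Treghi MACS 2, naive FACS 1 or naive MACS 1 for Treghi cells (adjusted p up to 0.0915).

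The ligands behaved differently from each other. Tnfsf11 encodes RANKL, best known for osteoclast and lymph node development and made by activated T cells. Its levels were 7.20, 7.63, 7.41 and 7.08 in TregHAR cells, 7.22, 7.11, 6.90 and 7.36 in Treghi cells, and 6.19, 6.39, 5.99 and 6.30 in naive cells. Both kinds of Treg cell lay above naive cells, which straddled the background ceiling, and the Treg ranges overlapped. It rose by 1.11 ± 0.14 on the log2 scale in TregHAR cells (2.16-fold, adjusted p = 0.000224) and by 0.93 ± 0.14 in Treghi cells (1.90-fold, adjusted p = 0.000792).

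Tnfsf8 encodes the ligand of CD30 and was close to the ceiling throughout. Its levels were 6.32, 6.42, 6.46 and 6.36 in TregHAR cells, 6.04, 6.26, 6.07 and 5.98 in Treghi cells, and 6.33, 6.38, 6.25 and 6.44 in naive cells. Treghi cells were lowest, with 1 of 4 arrays above background, and they overlapped with naive cells. The difference of Treghi from naive cells was -0.26 ± 0.07 (adjusted p = 0.0254), and that of TregHAR from naive cells was 0.04 ± 0.07 (adjusted p = 0.778). The Treghi call was lost in 10 of 27 alternative settings, among them each purification alone and the omission of any of 5 single arrays (without Treghi FACS 1, Treghi MACS 2, naive FACS 1, naive FACS 2 or naive MACS 2), where the differences lay between -0.21 and -0.32.

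Tnfrsf1a and Tnfrsf1b encode TNFR1, which is broadly expressed and bears a death domain, and TNFR2, which is prominent on Treg cells. For Tnfrsf1b, levels were 6.45, 6.44, 6.42 and 6.30 in TregHAR cells, 6.56, 6.41, 6.53 and 6.61 in Treghi cells, and 6.32, 6.33, 6.40 and 6.39 in naive cells. All 12 values were just above the ceiling, and the differences from naive cells were 0.04 ± 0.06 in TregHAR cells (adjusted p = 0.738) and 0.17 ± 0.06 in Treghi cells (adjusted p = 0.0711). Its 2 other probes were above background on 1 and 0 arrays, so these probes carried little signal of Tnfrsf1b. For Tnfrsf1a, levels ranged between 6.08 and 6.65 in TregHAR cells, 6.38 and 6.501 in Treghi cells, and 6.30 and 6.59 in naive cells, with differences from naive cells of -0.16 ± 0.12 and -0.03 ± 0.12 (adjusted p = 0.422 and 0.925). Without TregHAR FACS replicate 2, the highest of the 12 values, Tnfrsf1a was lower in TregHAR than in naive cells (-0.30, adjusted p = 0.0382).

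Fas, the receptor of Fas ligand that triggers apoptosis of activated lymphocytes, was well above background in all cells. Its levels were 8.70, 8.60, 8.52 and 8.92 in TregHAR cells, 8.68, 9.10, 8.84 and 8.42 in Treghi cells, and 8.76, 8.84, 8.30 and 8.40 in naive cells. The 3 ranges overlapped. Its difference from naive cells was 0.11 ± 0.13 in TregHAR cells (95% interval -0.18 to 0.40, adjusted p = 0.633) and 0.18 ± 0.13 in Treghi cells (-0.10 to 0.47, adjusted p = 0.389). One further Fas probe (ILMN_2582933, designed on another transcript) was lower in Treghi than in naive cells by -0.27 (adjusted p = 0.0410).

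**Figure D3:**
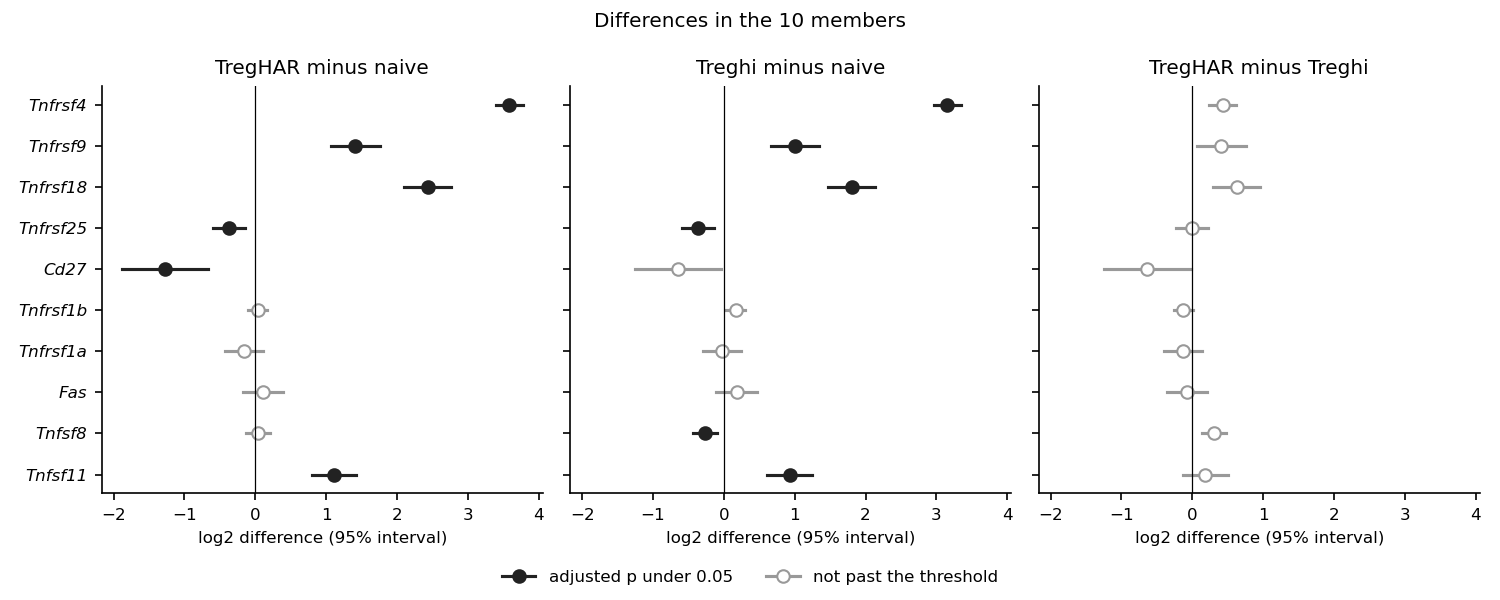
Log2 differences of the 10 genes (horizontal axis) with 95% intervals for TregHAR minus naive, Treghi minus naive and TregHAR minus Treghi, on a common scale. Filled points passed an adjusted p of 0.05 and open points did not; none passed between TregHAR and Treghi cells.

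The second comparison asked whether Treg cells made with low TGF-β and harmine carried other levels of these genes than Treg cells made with high TGF-β. No array was of cells made with low TGF-β alone, so an effect of harmine and an effect of the lower TGF-β dose cannot be told apart here. The paper used low TGF-β alone as a control in other assays. In limma 0 of the 10 genes and 0.466% of all genes passed, while 5 of the 10 genes and 10.8% of all genes had an unadjusted p under 0.05. The ranges of the 4 arrays did not overlap for 4 of the 10 genes (Tnfrsf4, Tnfrsf9, Tnfrsf18 and Tnfsf8), each with TregHAR higher, and did not overlap for 6.56% of all genes in either direction and 3.39% with TregHAR higher. With the methods' t-test at its nominal threshold, 3 of the 10 passed (Tnfrsf4, Tnfrsf18 and Tnfsf8), as did 10.3% of all genes.

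Tnfrsf18 averaged 11.52 ± 0.11 in TregHAR cells and 10.89 ± 0.17 in Treghi cells (SD, n = 4 each), a log2 difference of 0.63 ± 0.15 (95% interval 0.29 to 0.96, limma adjusted p = 0.125). Its second probe gave 0.59, also without overlap. Tnfrsf4 averaged 11.75 ± 0.16 in TregHAR cells and 11.32 ± 0.15 in Treghi cells, a difference of 0.43 ± 0.08 (0.24 to 0.62, adjusted p = 0.0744). Both costimulatory receptors were higher in TregHAR cells within FACS (0.75 and 0.44) and within MACS (0.50 and 0.41), and neither passed in either purification. Tnfsf8 differed by 0.30 ± 0.07 (0.14 to 0.47, adjusted p = 0.135), with all 4 TregHAR but only 1 of 4 Treghi arrays above background.

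The differences of Tnfrsf9 and Cd27 rested on the 2 TregHAR arrays that stood apart. Tnfrsf9 differed by 0.41 ± 0.15 (0.07 to 0.75, adjusted p = 0.350) with all arrays and by 0.13 without these 2. Its ranges barely separated, with a lowest TregHAR level of 7.5066 and a highest Treghi level of 7.5001. On its other probe above background (ILMN_3103746) the difference was 0.17 and the ranges overlapped. Cd27 differed by -0.63 ± 0.27 (-1.24 to -0.02, adjusted p = 0.436) with all arrays, and its ranges overlapped. For Tnfrsf4, Tnfrsf18 and Tnfsf8 the differences without the 2 arrays were 0.32, 0.62 and 0.35. Tnfsf11 (0.18 ± 0.14), Fas (-0.07 ± 0.13), Tnfrsf25 (-0.01 ± 0.10), Tnfrsf1a (-0.13 ± 0.12) and Tnfrsf1b (-0.13 ± 0.06) had intervals that included 0.

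Whether the precursors had been purified by FACS or MACS made no difference that passed the threshold for any of the 10 genes. Within naive cells 0 of the 10 passed and 1.39% of all genes did, with 2 of the 10 and 9.83% of all genes at an unadjusted p under 0.05. These 2 were Fas, 0.45 ± 0.18 higher in FACS than in MACS cells (adjusted p = 0.426), and Tnfrsf4, with a difference of -0.35 ± 0.12 (adjusted p = 0.322). Within TregHAR and within Treghi cells 0 of the 10 passed and 0 had an unadjusted p under 0.05, while 3.71% of all genes did in TregHAR and 2.48% in Treghi cells. Differences of the 10 genes lay between -0.19 and 0.30. The interaction of the TregHAR minus Treghi difference with purification also gave 0 of 10, with 0 at an unadjusted p under 0.05 (4.95% of all genes). In these 3 tests 0% of all genes passed. Against naive cells within FACS, where 18.6% of all genes passed in TregHAR cells and 16.6% in Treghi cells, 5 of the 10 genes passed in each. Within MACS, where 20.2% and 18.2% passed, 4 of the 10 did in each. Between TregHAR and Treghi cells 0 of the 10 passed within either, while 0.0255% of all genes passed within FACS and 0.0192% within MACS. At an unadjusted p under 0.05 there were 2 of the 10 within FACS (10.3% of all genes) and 4 within MACS (6.14%). Tnfrsf4, Tnfrsf9, Tnfrsf18 and Tnfsf11 were higher within FACS and within MACS in both kinds of Treg cell.

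Genes that pair with these 10 were mostly dim. Tnfsf4 (OX40 ligand), Cd70 (the ligand of CD27) and Tnfrsf8 (CD30, the receptor of Tnfsf8) were above background on 0 of 12 arrays, and Tnfrsf11a (RANK) on 1. Tnfsf15 and Tnfsf18, the ligands of DR3 and GITR, did not pass the filter on dim probes. Tnfsf9, the ligand of CD137, exceeded background on all 8 Treg arrays and on 0 naive arrays, which gave at least 1.10-fold in TregHAR cells (adjusted p = 0.0207) and at least 1.15-fold in Treghi cells (adjusted p = 0.00765). Within 1 purification it passed in Treghi cells within MACS (adjusted p = 0.0250), and not in Treghi cells within FACS or in TregHAR cells within either (adjusted p = 0.107 to 0.135). Tnfrsf11b, the decoy receptor of RANKL, was called higher in both kinds of Treg cell but exceeded background on only 4 arrays, so no fold is given. Neither call held within FACS (TregHAR 0.31, adjusted p = 0.107, and Treghi 0.28, adjusted p = 0.156).

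Among ligands with a clear signal, Lta and Tnf were higher and Fasl and Ltb lower. Lta, lymphotoxin α, was 8.63-fold higher in TregHAR cells (3.11 ± 0.32, adjusted p = 6.44e-05) and 5.90-fold higher in Treghi cells (2.56 ± 0.32, adjusted p = 0.000248) than in naive cells. Tnf, the ligand of both TNF receptors, had levels of 8.41, 8.39, 8.68 and 7.87 in TregHAR cells, 8.50, 7.52, 7.66 and 8.12 in Treghi cells, and 7.001, 6.93, 7.03 and 6.45 in naive cells. All Treg arrays lay above all naive arrays for Tnf, with differences of 1.48 ± 0.25 (adjusted p = 0.00125) and 1.10 ± 0.25 (adjusted p = 0.00794). The Treghi call was lost within FACS (1.04, adjusted p = 0.0739). Fasl, the ligand of Fas, had levels of 6.02, 6.79, 6.81 and 6.31 in TregHAR cells, 7.17, 6.83, 6.83 and 6.67 in Treghi cells, and 7.25, 7.35, 7.29 and 7.23 in naive cells. It was lower in TregHAR cells (-0.79 ± 0.17, adjusted p = 0.00595) and differed by -0.40 ± 0.17 in Treghi cells (adjusted p = 0.125), and as with Cd27 the 2 TregHAR arrays that stood apart were the lowest. Within MACS the TregHAR call was lost (-0.69, adjusted p = 0.0771). Ltb, which joins Lta in a membrane complex, was lower in both (-0.78 and -0.93), and Tnfsf14, or LIGHT, was higher in both (0.39 and 0.70). For Tnfsf14 neither call held within MACS (0.16, adjusted p = 0.614, and 0.45, adjusted p = 0.105), whereas within FACS the differences were 0.63 and 0.95. Of the 11 ligands measured beside Tnfsf8 and Tnfsf11, 4 were higher and 2 lower in TregHAR cells, and 4 were higher and 1 lower in Treghi cells, while 27.5% and 26% of all genes passed. Within FACS, 3 were higher and 2 lower in TregHAR cells and 2 higher and 1 lower in Treghi cells, while 18.6% and 16.6% of all genes passed. Lta was higher and Ltb lower in each purification.

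Of 18 further TNF receptors measured, 2 were higher and 5 lower in TregHAR cells than in naive cells, and 3 were higher and 5 lower in Treghi cells, while 13.8% of all genes were higher and 13.7% lower in TregHAR cells and 12.8% and 13.2% in Treghi cells. Tnfrsf13b, which encodes TACI, a receptor of BAFF and APRIL, was higher by 1.04 ± 0.13 and 1.08 ± 0.13. Tnfrsf12a, the receptor of TWEAK, was lower (-0.88 and -0.58). Cd40 and Tnfrsf13c, the receptors of CD40 ligand and BAFF that mark B cells, were lower in both kinds of Treg cell over all arrays (Cd40 at least 1.91-fold in TregHAR cells), but within FACS Cd40 differed by -0.33 (adjusted p = 0.150) and -0.24 (adjusted p = 0.333) and Tnfrsf13c by -0.11 and 0.04, neither past the threshold. The higher B cell marker level of the naive MACS arrays moved with these 2 genes, and its part in them was not tested. Within FACS, 1 receptor was higher and 1 lower in each kind of Treg cell, while 18.6% (TregHAR) and 16.6% (Treghi) of all genes passed in either direction. For TACI and the TWEAK receptor the differences within FACS were 1.20 and -1.02 in TregHAR cells and 1.31 and -0.79 in Treghi cells. Within MACS they were 0.87 and -0.75 in TregHAR cells and 0.84 and -0.37 in Treghi cells, the last not past the threshold (adjusted p = 0.112).

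**Figure D4:**
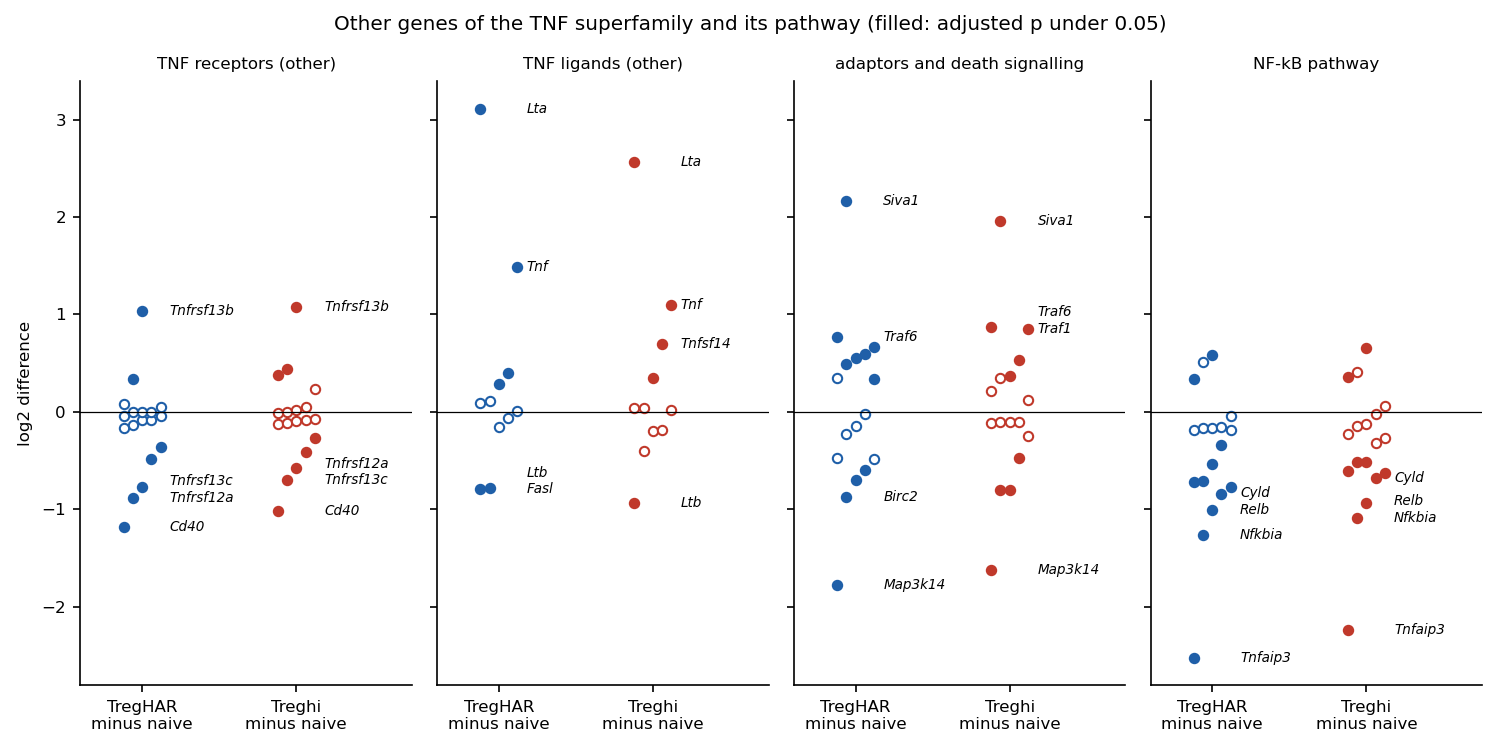
Log2 difference from naive cells (vertical axis) of the other TNF receptors, TNF ligands, adaptors and death-signalling genes, and NF-κB pathway genes measured, in TregHAR cells (blue) and Treghi cells (red). Filled points passed an adjusted p of 0.05; the genes with the largest differences in each list are named, and Tnfaip3 lies lowest and Lta highest.

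Downstream of the receptors, 7 of 17 adaptor and death-signalling genes were higher and 4 lower in TregHAR cells than in naive cells, and 5 were higher and 4 lower in Treghi cells. Within FACS, 4 were higher and 4 lower in TregHAR cells and 4 higher and 3 lower in Treghi cells. There, 18.6% of all genes passed in either direction in TregHAR cells and 16.6% in Treghi cells. Of all genes, 13.8% were higher and 13.7% lower in TregHAR cells over all arrays, and 12.8% and 13.2% in Treghi cells. Siva1, whose product binds the tail of CD27 and promotes apoptosis, was 4.49-fold higher in TregHAR cells (2.17 ± 0.08, adjusted p = 7.38e-08) and 3.87-fold higher in Treghi cells (1.95 ± 0.08, adjusted p = 1.65e-07). Map3k14, the NF-κB-inducing kinase of the non-canonical pathway, was lower (-1.78 ± 0.17 and -1.63 ± 0.17). Birc2, an inhibitor of apoptosis that limits that kinase, was lower (-0.88 and -0.81), and the adaptor Traf6 was higher (0.77 and 0.87). Traf1 was higher in Treghi cells (0.85 ± 0.21, adjusted p = 0.0123) and differed by 0.35 in TregHAR cells (adjusted p = 0.286), and its Treghi call was lost within MACS (0.71, adjusted p = 0.145). Siva1, Map3k14, Birc2 and Traf6 passed in both kinds of Treg cell within each purification.

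Of 18 NF-κB pathway genes, 2 were higher and 9 lower in TregHAR cells than in naive cells, and 2 were higher and 8 lower in Treghi cells, against the same shares of all genes (13.8% and 13.7%, and 12.8% and 13.2%). The 4 largest decreases included 3 inhibitors of the pathway. Genes that are not inhibitors, such as Rela and Ikbkb, were also called lower, in both kinds of Treg cell within each purification. Tnfaip3, which encodes the feedback inhibitor A20 and was above background on 2 of 4 TregHAR arrays, was 5.75-fold lower in TregHAR cells (-2.52 ± 0.26, adjusted p = 5.60e-05) and 4.73-fold lower in Treghi cells (-2.24 ± 0.26, adjusted p = 0.000131). Nfkbia (IκBα) differed by -1.26 ± 0.17 and -1.09 ± 0.17, the deubiquitinase Cyld by -0.84 and -0.68, and the transcription factor subunit Relb by -1.01 and -0.93, all past the threshold. Within FACS, TregHAR cells differed from naive cells by -2.69 for Tnfaip3, -1.20 for Nfkbia, -0.79 for Cyld and -0.73 for Relb, again all past the threshold. There 2 genes of the list were higher and 6 lower in each kind of Treg cell. In either direction, 18.6% of all genes passed within FACS in TregHAR cells and 16.6% in Treghi cells. Adam17, the protease that sheds TNF and its receptors, was higher by 0.32 ± 0.06 in TregHAR cells and 0.40 ± 0.06 in Treghi cells, and within FACS the TregHAR difference was 0.28 (adjusted p = 0.0508). Within MACS the Treghi call of Nfkbia was lost (-0.75, adjusted p = 0.0615). The median log2 difference of TregHAR and of Treghi from naive cells was -0.06 and -0.08 over the further receptors (18 measured of 20 listed), 0.09 and 0.03 over the ligands (11 of 16), -0.02 and -0.10 over the adaptors (17 of 19) and -0.26 and -0.29 over the NF-κB genes (18 of 20), beside -0.01 and 0.00 over all genes. In none of these lists did a gene pass between TregHAR and Treghi cells.

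The genes most like 4 of the receptors and ligands across the 12 arrays were found by the smallest root mean square difference of centred log2 levels among 7800 genes above background on at least 6 arrays. For Tnfrsf4 these were H2ac21 (0.144), Rad54b (0.153) and Kif22 (0.181), which encode a histone, a DNA repair helicase and a mitotic kinesin. For Tnfrsf9 they were Dcxr (0.123), Sae1 (0.129) and Mtmr3 (0.132). For Cd27 they were Elf1 (0.182), Ugcg (0.187) and Arap2 (0.191), and for Tnfsf8 Fastkd5 (0.0955), Ubac1 (0.101) and Snrnp48 (0.102). Of these, Rad54b averaged 9.71 in TregHAR cells, 9.36 in Treghi cells and 6.39 in naive cells, and Elf1 averaged 8.74, 9.20 and 9.92 in the same order.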

How the data were processed

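RNA of 12 samples was hybridized to Illumina Mouse WG-6 v2 arrays, 1 array a sample, and groups were taken from the labels. The authors scanned the arrays and deposited non-normalized intensity values, collected with GenomeStudio, whose mean was 257 on every array, so they had been scaled before deposit. The authors also deposited log2 values made with lumi (background correction, variance-stabilizing transformation, robust spline normalization), used here only as an alternative. Here the normexp correction of limma 3.58.1 (offset 50, R 4.3.3) was applied to the intensities, followed by quantile normalization and log2. Probes above the array median on at least 2 arrays were kept (32081), and a gene was represented by its brightest kept probe. Probe genes came from the platform annotation, in which 34885 probes had 1 gene, 18 several and 10378 none. The background ceiling was the density peak of an array plus 3 SDs of the values below it. "At least" marks a fold against a group wholly under it, set to the ceiling.

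The limma model held 1 mean per group, 6 in all (two-sided, residual degrees of freedom 6, Benjamini-Hochberg over the 15663 genes, threshold 0.05), and treatments were compared by averaging the differences within FACS and within MACS. Errors of differences are moderated SEs. The fit was tested on simulated data. The alternatives were no background correction, scaling to a common median, no filter, the mean of all probes, the deposited log2 values, a replicate block, a term for Eif2s3y signal, treatment alone, every probe tested, the methods' t-test, each purification alone and omission of single arrays. Named were the 10 genes and their ligands or receptors whatever their result, up to 4 called genes of each pathway list by size in each comparison, and the 3 genes most like 4 of the 10. The genes and lists were chosen with earlier results of these data known. Promoter sequences are from RefSeq (GRCm38.p6). The number of arrays limits precision.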

Additional observations from a re-analysis of the deposited data

Results flagged for a closer look

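Among 30 groups of 4 arrays (10 genes in 3 treatments), 2 had 1 array far from the other 3, as chance does in about 1 group in 20. Tnfrsf9 had a log2 level of 7.13 in Treghi FACS replicate 1, below 7.45, 7.45 and 7.50 on the other Treghi arrays. Cd27 had 11.13 in Treghi MACS replicate 2, below 11.67, 11.70 and 11.76 on the others. Of 10 tests of whether the TregHAR minus Treghi difference depended on purification, 0 passed.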

How the results depend on the processing

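The counts of the 10 genes called stayed within 1.5 times under every alternative, except that the methods' t-test at its nominal threshold called 3 of the 10 genes and 10.3% of all genes between TregHAR and Treghi cells, against 0 of the 10 in limma. No difference of a called gene changed sign. For the 10 genes, 258 of 270 values kept their side of the threshold in TregHAR against naive cells, 248 of 270 in Treghi against naive cells and 267 of 270 between the 2 kinds of Treg cell. Tnfrsf4, Tnfrsf9, Tnfrsf18 and Tnfsf11 passed against naive cells under all 27 alternatives in both kinds of Treg cell, whereas Tnfrsf25 passed under 17 and 19 and Tnfsf8 in Treghi cells under 17. Leaving out single arrays, Cd27 ranged between -1.55 and -0.9996 in TregHAR against naive cells. Scaling to a common median moved the median of all genes by under 0.1.

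Replicate numbers are shared by the groups. Deviations of same-numbered arrays correlated at -0.62 to 0.42, above 0.1 in 6 of 15 pairs of groups and highest between naive FACS and naive MACS arrays. Xist and Eif2s3y followed the replicate number on the naive arrays, and in Treghi cells Eif2s3y was above background only on replicates 2. In TregHAR cells it was above background on both MACS replicates and on neither FACS replicate. Whether same-numbered arrays shared a donor was not tested, so the 4 arrays of a treatment may not be independent. With the replicate number as a block, no call of the 10 genes changed in any comparison of treatments. Of all genes, 39 passed with the block and 73 without it between the 2 kinds of Treg cell. Both of the following alternatives were chosen after seeing the data. Leaving out the 2 TregHAR arrays that stood apart leaves 1 array in each TregHAR group. TregHAR cells then differed from naive cells by -0.27 for Tnfrsf25 and -0.74 for Cd27. On the 6 arrays without Eif2s3y signal, a Y-linked transcript, the Treghi call of Tnfsf8 was lost (-0.24, limma adjusted p = 0.132). No other call of the 10 genes changed on those 6 arrays. The TregHAR arrays among them were all FACS arrays, whereas Treghi and naive arrays were of both purifications, and that fit held no term for purification. Tnfsf8, Tnfrsf1a and Tnfrsf1b lay near the background ceiling, which limits what their differences show.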
